A study of Homo sapiens with 12 samples.

Results

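The 6 genes described here encode the intermediate filament proteins of neurons: *NEFL* and *NEFM*, the light and medium neurofilament subunits, both on chromosome 8, *NEFH*, the heavy subunit, *INA* (α-internexin), *PRPH* (peripherin) and *NES* (nestin). They were taken by gene name from the table of each cell type, and all 6 were found in both, among 16406 genes for iMNs and 19016 for i3Ns. Each name belonged to a single gene identifier in each table. *SMN*-KD and SCR neurons were sequenced after 12 days of knockdown, with 3 libraries in each of the 4 groups and 12 in all. The iMNs were motor neurons made from iPSCs of the line labelled NINDS (NH50286), which carried Td-Tomato under the HB9 promoter and were sorted by FACS for it. The i3Ns were excitatory neurons made by NGN2 induction from H1, an established human ES cell line, and are labelled as cortical neurons. In both, *SMN*-KD neurons carried a lentiviral shRNA against *SMN1* and *SMN2* and SCR neurons a scrambled shRNA, from a vector in which doxycycline turns on the shRNA. With 1 stem cell line behind each of them, cell type, line and differentiation protocol cannot be told apart. The labels do not say whether replicates were separate cultures, so errors and p-values measure the spread between these libraries, which may be technical.

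Neurofilaments are ropes of coiled-coil proteins that fill the axon, set its caliber and are carried along it by slow axonal transport. *NEFL* is the core subunit, *NEFM* and *NEFH* add long side arms that are phosphorylated in the axon, and α-internexin joins this triplet as a further subunit in neurons of the central nervous system. Peripherin is found mainly in neurons with axons in the periphery, motor neurons among them, and rises in several kinds of neurons after axon injury. Nestin is best known from neural progenitors. Neurofilament light chain released into blood and cerebrospinal fluid is followed as a sign of axonal damage in motor neuron diseases, SMA and ALS included.

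The genes lie on 5 chromosomes. *NEFL* and *NEFM* are neighbours, with 4 and 3 exons in their MANE Select transcripts (1 reference transcript per gene). *NEFH* (ENSG00000100285, chr22:29480218-29491390, plus strand) has 4 exons, *INA* (ENSG00000148798, chr10:103277138-103290346, plus strand) has 3 and *NES* (ENSG00000132688, chr1:156668763-156677407, minus strand) has 4. *PRPH* (ENSG00000135406, chr12:49295147-49298686, plus strand) is built differently, with 9. *NEFL* is ENSG00000277586 and *NEFM* is ENSG00000104722. All positions are from GENCODE 44 on GRCh38. Of the 6 genes, 5 share exon bases with a gene on the opposite strand, from 343 bases for *NEFH* to 1872 for *PRPH*, which lies across from the non-coding *TROAP-AS1*. Whether the quantification used strand is not given in the sources used here, so reads of such partners may not be told apart. Only the partner of *INA*, the protein-coding *NT5C2* (452 shared bases), had values that were used here. It did not pass in iMNs (log2 fold change 0.00, adjusted p = 0.987) and rose by 0.47 on the log2 scale in i3Ns (adjusted p = 8.04e-21), with standard errors of 0.05.

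An shRNA can also lower transcripts that match bases 2 to 8 of its guide strand, mostly through the 3′-UTR, and the 6 genes were searched for such matches. The single site found, in *INA*, is shown. The guides were read from the target sequences the study states, with the guide taken to start opposite the last base of the target, which was not measured. The 7-base matches to the SMN guide are CTAATAA (guide bases 2 to 8) and GCTAATA (bases 3 to 9), and those to the scrambled guide are CTAGTAA and ACTAGTA, each searched on the transcript strand alone. Adjoining matches of the same guide overlap in 6 bases. The site of *INA* lies at chr10:103288819-103288825 on the plus strand of GRCh38, in exon 3 of 3 and within the 3′-UTR. It is shown with 10 bases on each side (chr10:103288809-103288835) and the match in capitals.
INA: cttacattctCTAATAAgaaaaccacc
No other match to either guide was found in the MANE Select 3′-UTRs of the 6 genes, and none in their coding sequences. Of 18780 such 3′-UTRs in the annotation, 13.6% hold CTAATAA, 7.67% GCTAATA, 6.84% CTAGTAA and 5.43% ACTAGTA. Either match to the SMN guide is held by 17.2%, and 1 of the 6 genes holds one.

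The knockdown was seen in both tables. The derived means of the 5 *SMN1* and *SMN2* identifiers, near-identical copies whose reads Salmon can split, together fell by 77.9% in iMNs and by 82.7% in i3Ns. No counts per library were analysed here, so the depth of each is unknown, and the mean normalized counts summed to 4.33e+07 over the iMN table and 4.50e+07 over that of i3Ns. The values below are group means derived from the authors' mean normalized count over 6 libraries and their log2 fold change, and the standard error of the fold change carries the spread between libraries. For the 6 genes this error would correspond to a coefficient of variation between libraries of 2.61% to 6.22% in iMNs and 2.31% to 12.4% in i3Ns. These coefficients were computed from the deposited DESeq2 errors and were not measured on values per library. The labels were checked against marker genes by their level per length (the derived mean per kilobase of exon, in parts per 1000000 of the table, ppm). The choline transporter *SLC5A7* stood at 230 in SCR iMNs and 84.2 in SCR i3Ns, and the vesicular acetylcholine transporter *SLC18A3* at 161 and 97.5. The vesicular glutamate transporters *SLC17A6* and *SLC17A7* stood at 341 and 151 in SCR i3Ns, against 17.7 and 0.898 in SCR iMNs. Other markers did not follow the labels, since the glutamate receptor gene *GRIN2B* stood at 115 in SCR iMNs and 0.219 in SCR i3Ns, *NEUROG2* at 12.3 and 4.09, and *CHAT*, the acetylcholine synthesis enzyme, at 12.2 and 16.0. The motor neuron genes *MNX1* and *ISL1* were also present in SCR i3Ns, at 68.0 and 604, against 13.1 and 60.0 in SCR iMNs. *POU4F1*, a gene of sensory neurons, stood at 235 in SCR i3Ns and at 0.567 in SCR iMNs. The 2 tables were normalized separately, so levels across them are descriptions only.

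*NEFL* and *NEFM* were among the most abundant transcripts in both neurons, and *NEFH* was not. In SCR iMNs, *NEFL* had a derived mean of 124376 normalized counts, *INA* 74323, *NEFM* 41180, *NES* 6723, *PRPH* 6669 and *NEFH* 2546. In SCR i3Ns, *NEFL* had 428827, *NEFM* 344975, *INA* 74255, *NES* 31764, *PRPH* 2530 and *NEFH* 1098. By mean normalized count, *NEFL* and *NEFM* ranked 2 and 3 of all genes in i3Ns, against 10 and 70 in iMNs. The triplet took 1.68% of all normalized counts in SCR i3Ns and 0.377% in SCR iMNs.

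Levels between genes are compared per length. In SCR iMNs the order was *NEFL* (3502 ppm), *INA* (2536), *NEFM* (1257), *PRPH* (283), *NES* (134) and *NEFH* (74.4). In SCR i3Ns it was *NEFL* (12222), *NEFM* (10657), *INA* (2565), *NES* (641), *PRPH* (109) and *NEFH* (32.5). Every neighbouring pair in these orders differed by more than the coefficients of variation above, which leave out any error of the lengths used. *INA* stood at nearly the same level per length in both neurons. The level per length in SCR i3Ns over that in SCR iMNs was 8.48 for *NEFM*, 4.78 for *NES* and 3.49 for *NEFL*, and 0.436 for *NEFH* and 0.384 for *PRPH*. *NEFH*, the subunit that maturing axons add late, was the lowest of the 6 in both, with *NEFL* at 47.0 times its level in SCR iMNs and 376 times in SCR i3Ns.

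**Figure D1:**
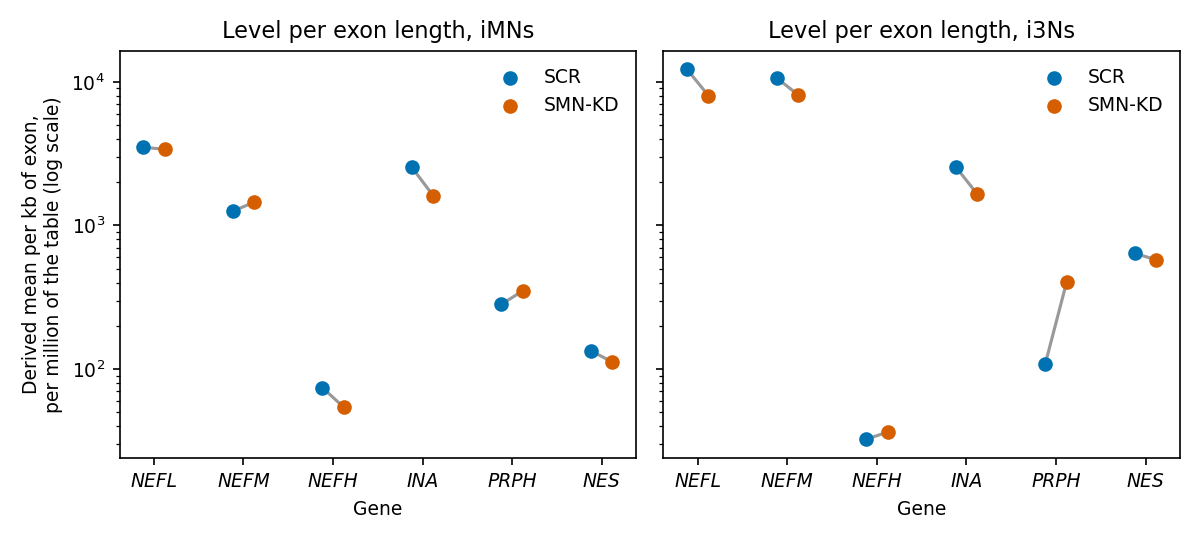
Derived group mean of each gene per kilobase of exon, in ppm of the table on a log axis, for SCR (blue) and *SMN*-KD (orange) neurons, iMNs on the left and i3Ns on the right. Each point is a mean derived for 3 libraries, with no error drawn. *NEFL* and *NEFM* stand at 8003 ppm or higher in both groups of i3Ns, and the longest line is that of *PRPH* in i3Ns, from 109 to 406.

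In *SMN*-KD iMNs, *INA* fell most among the 6 genes, *NEFH* and *NES* fell less, and the abundant *NEFL* and *NEFM* shifted little and in opposite directions. At an adjusted p-value under 0.01, 4 of 6 genes fell (*NEFL*, *NEFH*, *INA*, *NES*), where 18.7% of all genes fell, and 2 rose (*NEFM*, *PRPH*), where 17.1% rose. None of the 6 passed the additional threshold of the study for DEGs, an absolute log2 fold change above 1, which 3.34% of all genes met. Their median log2 fold change was -0.22, against 0.00 for all genes of the table. In bulk RNA, fewer cells of a type and less RNA per cell cannot be told apart.

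*INA* fell from 74323 to 44883 normalized counts in iMNs, a fall of 39.6% (log2 fold change -0.73, standard error 0.03, DESeq2 adjusted p = 4.17e-122). Of the 7733 genes at 1000 or more mean normalized counts, 4.55% fell as far or farther. *NEFH* fell from 2546 to 1771, by 30.5% (log2 fold change -0.52, standard error 0.06, adjusted p = 9.63e-17). The fall of *NES*, from 6723 to 5363, came to 20.2% (log2 fold change -0.33, standard error 0.07, adjusted p = 1.90e-05). The standard error of *NES* was larger than those of 97.1% of the 3002 genes with a mean within a factor of 2 of its own. Their median was 0.05. *PRPH* rose from 6669 to 7907, by 18.6% (log2 fold change 0.25, standard error 0.05, adjusted p = 7.24e-06).

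*NEFL* had 124376 normalized counts in SCR and 114669 in *SMN*-KD iMNs (log2 fold change -0.12, standard error 0.03, DESeq2 adjusted p = 0.00284), and *NEFM* had 41180 and 45351 (log2 fold change 0.14, standard error 0.04, adjusted p = 0.000851). The fall of *NEFL* was not called when both groups were rescaled to the same total of normalized counts (log2 fold change -0.034, adjusted p = 0.516). With standard errors doubled, *INA* and *NEFH* alone were called among the 6 in iMNs.

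The subunits moved unequally. *NEFM* lay 0.26 above *NEFL* on the scale of log2 fold changes (95% interval 0.15 to 0.36), *NEFH* lay 0.41 below *NEFL* (0.27 to 0.55) and *INA* 0.61 below it (0.52 to 0.70). Of 15 pairs of the 6 genes, 14 had an interval that excludes 0, with the covariance of the errors taken as 0. The exception was *NEFM* and *PRPH*, whose fold changes differed by 0.11 (interval -0.02 to 0.23). The same share was not computed over other pairs of genes, so the count does not set these 6 apart. Doubled standard errors were not applied to the pairs. Per length, *NEFL* over *NEFM* went from 2.79 in SCR to 2.33 in *SMN*-KD iMNs, and *NEFL* over *NEFH* from 47.0 to 62.4.

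In *SMN*-KD i3Ns, the abundant subunits fell together and *PRPH* rose 3.61-fold. At an adjusted p-value under 0.01, 4 of 6 genes fell (*NEFL*, *NEFM*, *INA*, *NES*), where 25.7% of all genes fell. *PRPH* rose, where 22.8% of all genes rose, and *NEFH* did not pass. *PRPH* was the only DEG of the 6, and 13.8% of all genes were DEGs. The median log2 fold change of the 6 was -0.32, against 0.01 for all genes.

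*NEFL* fell from 428827 to 270987 normalized counts in i3Ns, a fall of 36.8% (log2 fold change -0.66, standard error 0.03, DESeq2 adjusted p = 3.05e-129). *NEFM* fell from 344975 to 253679, by 26.5% (log2 fold change -0.44, standard error 0.03, adjusted p = 1.82e-43). Together, the triplet went from 1.68% to 1.19% of all normalized counts in i3Ns. *INA* fell from 74255 to 46247, by 37.7% (log2 fold change -0.68, standard error 0.03, adjusted p = 3.10e-98), and its fold change could not be told from that of *NEFL* (difference -0.02, 95% interval -0.10 to 0.06). Of the 7767 genes at 1000 or more mean normalized counts, 11.4% fell as far as *INA* or farther.

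*NEFH* had 1098 normalized counts in SCR and 1190 in *SMN*-KD i3Ns (log2 fold change 0.12, 95% interval -0.04 to 0.27, DESeq2 adjusted p = 0.212), and the interval excludes a fall like that of *NEFL*. The difference between *NEFH* and *NEFL* on the scale of log2 fold changes was 0.78 (95% interval 0.61 to 0.94). *NEFL* and *NEFM*, at 12222 and 10657 ppm in SCR i3Ns, were left at 8003 and 8121 ppm in *SMN*-KD i3Ns, a gap within their coefficients of variation of 2.31% and 2.69%.

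*PRPH* rose from 2530 to 9136 normalized counts in i3Ns, 3.61-fold (95% interval 2.96 to 4.40, log2 fold change 1.85, standard error 0.15, DESeq2 adjusted p = 8.48e-37). Among the same 7767 genes, 0.296% rose as far or farther. Its level per length went from 109 to 406 ppm, past the 352 of *SMN*-KD iMNs. The standard error of *PRPH* was larger than those of 99.6% of the 3208 genes with a mean within a factor of 2 of its own, whose median was 0.05. *POU4F1*, from the list of peripheral and sensory neuron markers, also rose in i3Ns (log2 fold change 0.81, standard error 0.06, adjusted p = 5.52e-45), from 235 to 429 ppm, and its part in the rise of *PRPH* was not tested. *TH*, from the same list, was not listed in i3Ns. In iMNs, where *PRPH* rose by 18.6%, *POU4F1* did not pass (log2 fold change 0.12, adjusted p = 0.495) and *TH* rose (log2 fold change 0.41, standard error 0.13, adjusted p = 0.00102).

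*NES* fell from 31764 to 27560 normalized counts in i3Ns, by 13.2% (log2 fold change -0.20, standard error 0.03, DESeq2 adjusted p = 1.20e-08). All 5 markers of dividing cells fell in the same libraries, from 39.2 to 12.1 ppm when summed, as did 4 of 7 progenitor markers (21.4 to 13.3 ppm), with *SOX2*, *HES5* and *FABP7* not passing. Of the 8 mesenchymal markers, 6 fell and *ACTA2* rose, and the sum went from 179 to 34.4 ppm. Of 5 listed astrocyte and oligodendrocyte genes, *OLIG1*, *OLIG2* and *MBP* fell (2235 to 786 normalized counts for the list), while the astrocyte genes *GFAP*, *AQP4* and *S100B* were not listed. *NES* itself stood at 641 ppm in SCR and 576 in *SMN*-KD i3Ns, and the part of these markers in its fall was not tested. In iMNs, none of the 4 listed dividing-cell markers passed (8.39 and 9.03 ppm). Nor did any of the 4 listed astrocyte and oligodendrocyte genes, which summed to 7.24 and 7.71 ppm but to 454 and 421 normalized counts. The direction of that sum depended on the scaling. *NOTCH1* was the only progenitor marker that fell in iMNs, at 22.9 and 22.1 ppm for the list, while 5 of 8 mesenchymal markers rose (31.1 to 53.4 ppm). Of 6 markers of all neurons, *STMN2*, *TUBB3*, *MAP2* and *ELAVL4* fell in both cell types. *SYN1* fell in iMNs and did not pass in i3Ns (log2 fold change -0.04, adjusted p = 0.442), and *RBFOX3* rose in iMNs (log2 fold change 0.35, adjusted p = 1.85e-05) and did not pass in i3Ns (-0.23, adjusted p = 0.0147). These 6 markers of all neurons summed to 7860 and 6821 ppm in SCR and *SMN*-KD iMNs and to 7418 and 6704 in i3Ns. Of 7 motor neuron markers, 4 fell and 1 rose in iMNs (480 to 367 ppm), and 5 fell and 1 rose in i3Ns (1038 to 936 ppm). Of 5 glutamatergic markers, 2 fell and 1 rose in iMNs (175 to 195 ppm), and 3 fell and 1 rose in i3Ns (533 to 341 ppm). Over all genes, 18.7% fell and 17.1% rose in iMNs, and 25.7% fell and 22.8% rose in i3Ns. The part of these neuronal markers in the falls of the filament genes was not tested.

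**Figure D2:**
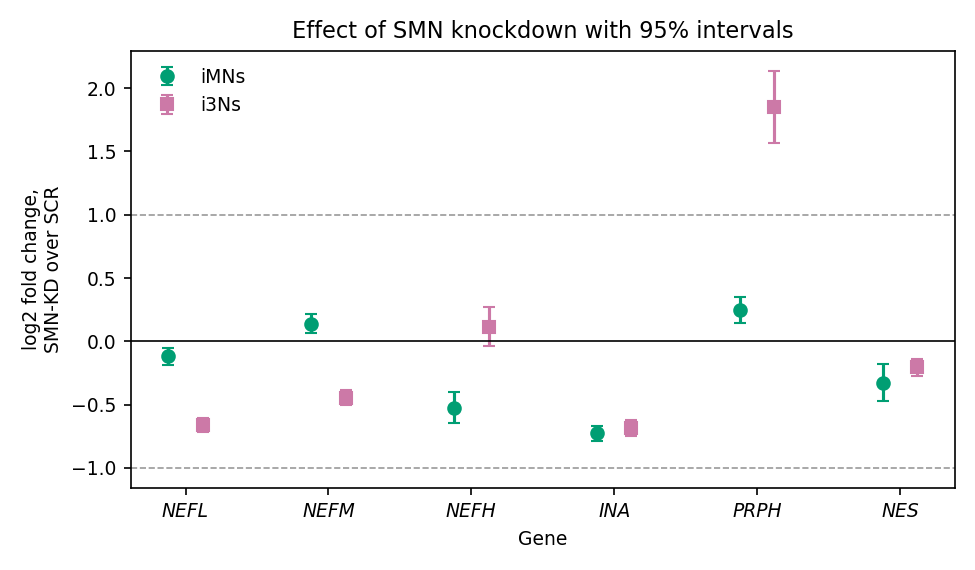
Log2 fold change (*SMN*-KD against SCR) for each gene, with 95% intervals, in iMNs (green circles) and i3Ns (pink squares), with dashed lines at the DEG threshold of 1 in either direction. The points of *INA* and of *NES* lie close together, those of *NEFL*, *NEFM* and *NEFH* lie apart, and *PRPH* in i3Ns stands alone above 1.

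The effect of *SMN*-KD was then compared across the cell types with a Wald z of the difference, adjusted over the 16093 genes in both tables. At an adjusted p-value under 0.01, it differed for 4 of 6 genes (*NEFL*, *NEFM*, *NEFH* and *PRPH*), where 34.0% of all genes differed. *NEFL* fell in both cell types and further in i3Ns, while *NEFM* rose in iMNs and fell in i3Ns, with differences (i3Ns minus iMNs, log2 scale) of -0.54 (standard error 0.04, adjusted p = 3.50e-33) and -0.58 (standard error 0.05, adjusted p = 4.01e-30). *NEFH* went the other way, with a difference of 0.64 (standard error 0.10, adjusted p = 2.14e-09), and *PRPH* rose more in i3Ns, by 1.61 (standard error 0.15, adjusted p = 9.82e-24). The difference of *NEFH* was not called with standard errors doubled (adjusted p = 0.0143).

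*INA* and *NES* did not pass this test. The difference of *INA* was 0.04 (95% interval -0.04 to 0.13, adjusted p = 0.470) and that of *NES* 0.12 (95% interval -0.04 to 0.28, adjusted p = 0.239). *INA* is the gene of the 6 with a match to the SMN guide. Genes with CTAATAA once and no GCTAATA in the 3′-UTR, at 100 or more mean normalized counts, had median log2 fold changes of -0.10 in iMNs (1144 genes) and -0.12 in i3Ns (1150 genes). Genes with neither match had medians of 0.04 and 0.05. Of the genes in the class of *INA*, 8.13% in iMNs and 19.4% in i3Ns fell as far as *INA* or farther, and of those with neither match 2.30% and 12.3%. The part of the match in the fall of *INA* was not tested.

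The make-up of the filament transcripts differed between the neurons and shifted with *SMN*-KD. Per length, *INA* made up 32.6% of the sum of the 6 in SCR iMNs and 23.1% in *SMN*-KD iMNs, while *NEFM* went from 16.1% to 20.9% and *NEFL* from 45.0% to 48.6%. In i3Ns, *NEFL* went from 46.6% to 42.6%, *NEFM* from 40.6% to 43.2% and *INA* from 9.78% to 8.81%. *PRPH* took 0.414% in SCR and 2.16% in *SMN*-KD i3Ns, and 3.63% and 5.05% in iMNs. The sum of the 6 per length was 26226 ppm in SCR and 18797 in *SMN*-KD i3Ns, and 7786 and 6966 in iMNs. The triplet alone was nearly level in iMNs, where its sum was 4833 and 4895 ppm but 168102 and 161790 in normalized counts, so its direction depended on the scaling.

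**Figure D3:**
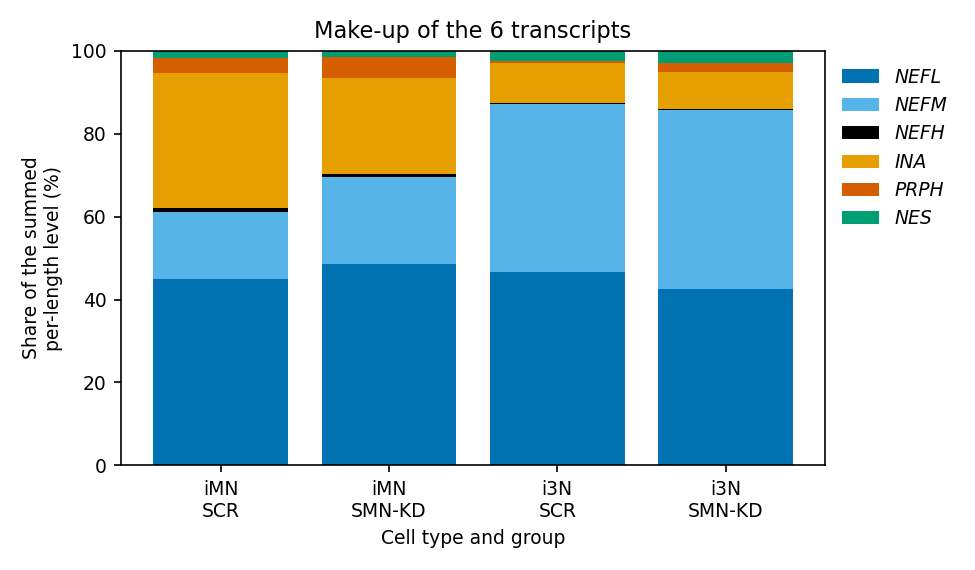
Share of each gene in the summed per-length level of the 6 transcripts (%), as stacked bars for SCR and *SMN*-KD iMNs and i3Ns, each derived from means of 3 libraries. The *INA* segment is larger in iMNs (32.6% and 23.1%) than in i3Ns (9.78% and 8.81%), and the *NEFM* segment is the reverse.

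Genes that act on neurofilaments were read from lists of kinases and phosphatases of the side arms, of transport motors and linkers, and of turnover and mRNA binding. Of 13 kinase and phosphatase genes, 6 fell and 2 rose in each cell type. At an adjusted p-value under 0.01, 18.7% of all genes fell and 17.1% rose in iMNs, and 25.7% fell and 22.8% rose in i3Ns. *CDK5R1*, the p35 activator of cyclin-dependent kinase 5, which phosphorylates the side arms, fell from 13670 to 10098 normalized counts in iMNs (log2 fold change -0.44, standard error 0.04, DESeq2 adjusted p = 5.04e-28) and from 11606 to 4618 in i3Ns (log2 fold change -1.33, standard error 0.04, adjusted p = 9.95e-211). *CDK5*, the gene of that kinase, passed in neither (log2 fold changes -0.05 and 0.14). *PPP2R2B*, a regulatory subunit of protein phosphatase 2A, rose by 0.25 in iMNs and by 1.03 in i3Ns on the log2 scale (standard errors 0.04 and 0.05).

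Of 8 transport and linker genes, 6 fell in iMNs and none rose, while in i3Ns 4 fell and 2 rose. The shares over all genes were 18.7% lower and 17.1% higher in iMNs, and 25.7% and 22.8% in i3Ns. *KIF5A*, the kinesin-1 heavy chain that has been tied to neurofilament transport, fell with log2 fold changes of -1.31 in iMNs and -1.32 in i3Ns, and its paralog *KIF5B* with -1.09 and -1.82 (standard errors 0.03 to 0.05). *KIF5C* fell in iMNs (log2 fold change -0.12, standard error 0.03, adjusted p = 6.11e-05) and rose in i3Ns (0.22, standard error 0.03, adjusted p = 5.49e-14). *DST*, a linker of filaments to other parts of the cytoskeleton, fell in iMNs (-0.34, standard error 0.04) and rose in i3Ns (0.44, standard error 0.03).

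Of 7 turnover and mRNA binding genes, 1 fell and 2 rose in iMNs, where 18.7% of all genes fell and 17.1% rose. In i3Ns, 2 fell and 2 rose, where 25.7% of all genes fell and 22.8% rose. *TRIM2*, a ubiquitin ligase that binds the light subunit, fell by 0.46 on the log2 scale in iMNs (standard error 0.03, adjusted p = 5.75e-41) and by 1.20 in i3Ns (standard error 0.04, adjusted p = 2.43e-192). *SOD1* rose in iMNs (0.21, standard error 0.04, adjusted p = 1.11e-05) and did not pass in i3Ns (0.06, adjusted p = 0.257). Of the genes named in these lists, *PPP2R2B*, *KIF5A* and *KIF5B* hold a match to the SMN guide in the MANE Select 3′-UTR. *CDK5R1*, *KIF5C*, *DST*, *TRIM2* and *SOD1* hold none. Over the annotation, 17.2% of such 3′-UTRs hold either match. The part of the matches in the changes of these genes was not tested.

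**Figure D4:**
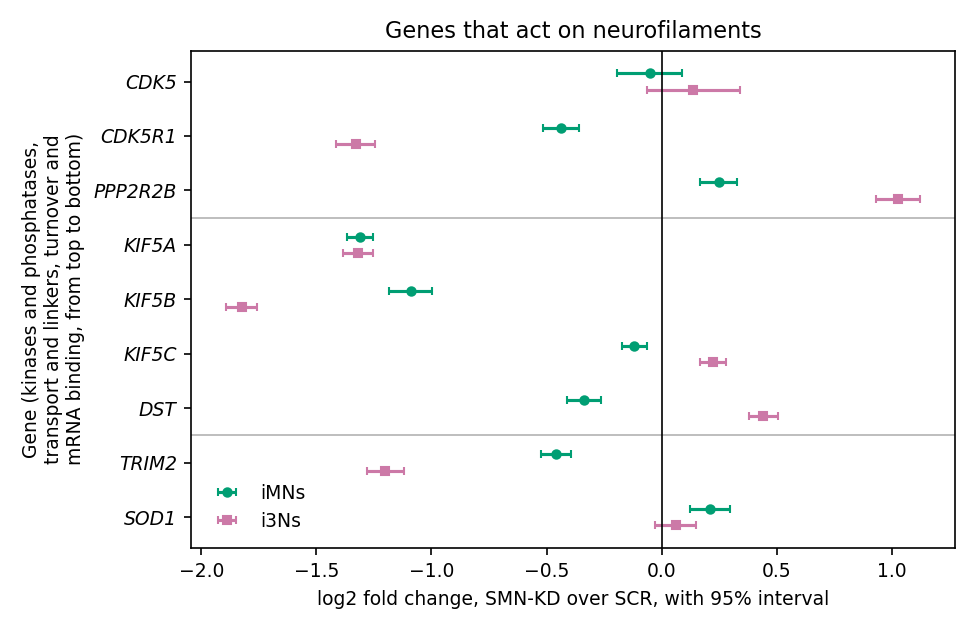
Log2 fold change (*SMN*-KD against SCR) with 95% intervals for the named genes that act on neurofilaments, in iMNs (green circles) and i3Ns (pink squares), in 3 blocks from kinases and phosphatases to turnover and mRNA binding. *KIF5A* and *KIF5B* lie below -1 in both cell types, and *CDK5R1*, *PPP2R2B* and *TRIM2* lie farther from 0 in i3Ns.

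Of 10 listed intermediate filament genes outside the 6, 1 fell in iMNs, where 18.7% of all genes fell, and 6 fell and 1 rose in i3Ns, where 25.7% fell and 22.8% rose. *VIM*, the vimentin of progenitors and mesenchymal cells, fell in i3Ns from 45033 to 28108 normalized counts (log2 fold change -0.68, standard error 0.04, DESeq2 adjusted p = 1.71e-51) and did not pass in iMNs (0.17, standard error 0.07, adjusted p = 0.0304). The epithelial keratins *KRT8* and *KRT18* fell in i3Ns by 5.17 (standard error 0.14) and by 2.54 (standard error 0.18) on the log2 scale, to 79.0 and 69.9 normalized counts. In iMNs, *KRT8* fell by 0.33 on the log2 scale (standard error 0.13, adjusted p = 0.00940) and *KRT18* did not pass (-0.02, standard error 0.17, adjusted p = 0.929). The astrocyte filament gene *GFAP* was not listed in either table.

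The genes whose pair of log2 fold changes was nearest to that of *PRPH*, over the 2 cell types and among the 6960 genes at 1000 or more mean normalized counts in each table, were *GCNT2*, *FSIP2* and *BTG2*. Their fold changes were 0.16 and 1.66 for *GCNT2*, 0.20 and 2.06 for *FSIP2* and 0.36 and 1.67 for *BTG2*, in iMNs and i3Ns in turn, at Euclidean distances of 0.209, 0.214 and 0.220 from *PRPH*.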

How the data were processed

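Total RNA was sequenced after ribosomal RNA depletion (150-base paired-end reads per the labels). The authors trimmed reads with fastp, ran Salmon for transcript quantification and tested *SMN*-KD against SCR within each cell type in DESeq2. The submitters' processing notes also name STAR and hg38. Versions, annotation, low-count filter and strand setting are not given in the sources used here. The deposited tables hold a mean normalized count (a signal, the mean over 6 libraries of counts divided by size factors), a log2 fold change with its standard error, and a p-value with its Benjamini-Hochberg adjustment. They hold the authors' own comparison, and its fold changes, errors and p-values are used here as deposited because counts per library were not analysed. For this reason no replicate could be left out and the depth of each library is unknown. The log2 fold changes appear shrunken, but for the 6 genes the fold change over its error was 0.965 to 1.01 of the z given by the deposited p-value.

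Each group mean was solved from the mean over 6 libraries and the fold change, both groups having 3 libraries. Levels per length used the union of exons of GENCODE 44 (95.8% of iMN and 95.4% of i3N genes had a length). Intervals (95%) are normal intervals from the standard errors. Differences between cell types were tested by a Wald z with Benjamini-Hochberg adjustment over 16093 genes. The code of this step was run on data simulated with the deposited standard errors, which cannot show whether those errors hold here. Python 3.11.15, pandas 2.3.3 and scipy 1.17.1 were used. The 6 genes and all lists were chosen with earlier results of these data known. Genes named from lists were the 3 with the largest absolute log2 fold change at an adjusted p-value under 0.01 and a mean normalized count of at least 100, and the *KIF5* genes. Others, among them *CDK5*, *NT5C2* and the markers named, were chosen after their values were seen. Some genes of the lists are not reported here. Alternatives changed the thresholds, the count filter, the errors, the centring, the scaling and the lengths.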

Additional observations from a re-analysis of the deposited data

Results flagged for a closer look

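The effect of *SMN*-KD differed between i3Ns and iMNs by the Wald test of the difference for 4 of the 6 genes, and the differences of the log2 fold changes (i3Ns minus iMNs) were -0.54 for *NEFL*, -0.58 for *NEFM*, 0.64 for *NEFH* and 1.61 for *PRPH*. The signs within the triplet were opposite, since *NEFL* fell further in i3Ns and *NEFM* rose in iMNs and fell in i3Ns, while *NEFH* fell in iMNs and did not pass in i3Ns. Such differences were common, at 34.0% of all genes tested. Cell type, stem cell line and protocol cannot be told apart. *PRPH* in i3Ns had a standard error of 0.15, against a median of 0.05 for genes of a like mean, and values per library, which would show how the libraries spread, were not analysed here.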

How the results depend on the processing

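No paired analysis was possible because the tables give no values per library, and for the same reason leaving out each replicate was not run. Each of the 6 genes had 1 identifier, so summing identifiers was not needed. No fold change, difference or count recomputed here reversed, but the summed level of the triplet in iMNs, which was not among them, was higher in *SMN*-KD per length and lower in normalized counts. With standard errors doubled, 2 of 6 genes were called in iMNs in place of 6, the log2 fold changes that lost the call being those of *NEFL* (-0.12, adjusted p = 0.318), *NEFM* (0.14, adjusted p = 0.258), *PRPH* (0.25, adjusted p = 0.0935) and *NES* (-0.33, adjusted p = 0.126). In i3Ns the same setting ended the call of *NES* (-0.20, adjusted p = 0.0123), and between cell types that of *NEFH* (0.64, adjusted p = 0.0143). A threshold of 1 on the absolute log2 fold change left 0 genes in iMNs and 1 in i3Ns, and a threshold of 0.25 left 3 in iMNs. Rescaling to equal totals, an alternative chosen after seeing the data, raised all log2 fold changes by 0.08 in iMNs and 0.06 in i3Ns and ended the call of *NEFL* in iMNs (log2 fold change -0.034, adjusted p = 0.516). Centring on the median, rebuilding the fold changes from the p-values, the filter on low counts and an adjusted p-value threshold of 0.05 ended no call among the 6. At a threshold of 0.001, *NEFL* in iMNs was not called (adjusted p = 0.00284), which left 5 of 6. Using the length of 1 reference transcript moved the levels per length to between 0.685 and 1.02 times their values, with the *NEFL* share at 45.8% in SCR iMNs and 46.9% in SCR i3Ns.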
